A study of Mus musculus with 10 samples.

Results

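The 9 genes described here encode proteins that the liver secretes into blood as signals of its metabolic state (hepatokines), among them 2 angiopoietin-like (ANGPTL) proteins. They were taken by symbol, as Fgf21, Gdf15, Angptl4, Angptl6, Inhbe, Fst, Enho, Lect2 and Fetub, and all 9 were found among the 23420 gene rows of the count files. RNA-seq read counts per gene came from the livers of male C57BL/6 mice, 4 months old, of which 5 ate standard chow and 5 went without food, but not water, for 48 hours. No allele, transgene or drug was given for either group, and the protocol speaks of 5 pairs of mice without saying what joined a pair. The series is about gene regulation by β-hydroxybutyrylation of histones, a mark made from a ketone body, and only its RNA-seq was used here.

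In a long fast the liver turns from storing to supplying fuel, and part of that change is announced to other organs by secreted proteins. FGF21, made in response to the fatty acid receptor PPARA and to the stress factor ATF4, acts on fat and brain through the co-receptor beta-klotho. ANGPTL4 inhibits lipoprotein lipase, the enzyme that splits plasma triglyceride so that tissues can take up its fatty acids. Follistatin (Fst) binds and blocks activins. Activins are dimers of inhibin beta subunits, and Inhbe encodes a subunit of this kind. Whether follistatin blocks the activin made from Inhbe was not tested here. GDF15 is a stress hormone with a receptor in the hindbrain, adropin (Enho) and LECT2 have been tied to insulin sensitivity, and fetuin B (Fetub) is a plasma inhibitor of proteases.

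Upstream sequences of Fgf21 and Inhbe are shown because both hold the core of the amino acid response element. Both genes were lowest in the same 2 starved livers, but so were Angptl6, Enho and Lect2, and 25.5% of all tested genes. A link between the core and these levels was not tested. RefSeq's table of gene starts (build GRCm38.p6, with the chromosome coordinates of mm10) held windows for 6 of the 9 genes, 8 windows in all. Each covers 250 bases before a start. Fgf21, Gdf15, Angptl6, Inhbe, Lect2 and Fetub were matched. Angptl4, Fst and Enho were not. The 250 bases before the start of Fgf21, chr7:45615491-45615740 on the minus strand, follow with the amino acid response element core TTGCATCA and the E-box CACGTG in capitals.

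Fgf21 upstream window: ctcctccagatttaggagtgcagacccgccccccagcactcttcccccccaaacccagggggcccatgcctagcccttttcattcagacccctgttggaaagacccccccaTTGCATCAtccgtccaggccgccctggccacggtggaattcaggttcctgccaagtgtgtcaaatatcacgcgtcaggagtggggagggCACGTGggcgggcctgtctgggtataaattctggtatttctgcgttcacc

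The core TTGCATCA, which ATF4 binds together with a partner of the C/EBP family, begins 139 bases before the start of Fgf21 and 181 bases before the RefSeq start of Inhbe. Stretches of 30 bases around it, with the core in capitals, lie at chr7:45615611-45615640 (minus strand) for Fgf21 and at chr10:127352011-127352040 (minus strand) for Inhbe.

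Fgf21: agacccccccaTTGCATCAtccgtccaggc

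Inhbe: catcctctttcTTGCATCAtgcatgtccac

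Aligned on the core, 15 of 30 bases were the same, and the longest run in common was TTGCATCAT, 9 bases. Searched on both strands, the core was in 0.791% of all 32851 windows of this length, and in no window of the other 4 genes. GENCODE places the Inhbe stretch inside an exon of a longer Inhbe transcript, so its distance from the start depends on the annotation. Of the 69 tested genes with the core in a window, 18 rose and 15 fell in starved liver, or 26.1% and 21.7%, beside 18.8% and 19.9% of the 9505 tested genes that have a window. Other motifs were searched in the same way. CACGTG was in the windows of Fgf21 and Gdf15 (6.02% of all windows), TATAAA in those of Fgf21 and Fetub (12.4%), and the nuclear receptor core AGGTCA in that of Gdf15 (14.0%). The forkhead core GTAAACA was on the opposite strand of a Fetub window (3.17%), and the cAMP response element TGACGTCA in no window of these genes (found in 1.55% of all). None of these matches overlapped the core. A match is a string of letters and not a measured binding site.

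Sequencing gave 23.0 to 29.9 M (mega) reads in genes per fed library and 18.2 to 28.1 M per starved library. Libraries of a group differed beyond sampling noise, by a chi-square over its degrees of freedom of at least 21.4 among fed and 11.2 among starved pairs. Starved library 2 was farthest from the others of its group, with a median root mean square log2 difference of 0.938 over all tested genes. Starved library 4 was next at 0.613, the other 3 starved libraries lay between 0.509 and 0.540, and the fed libraries between 0.341 and 0.368. Values without starved libraries 2 and 4 are therefore given for each of the 9 genes, and for part of the other genes and lists. These 2 libraries were picked for their distance in the same data, so leaving them out narrows the starved spread by selection. A call without them shows how far a result depends on them and is not separate support. Hepatocyte markers, among them albumin, summed to 82623 to 121135 CPM (a gene's reads per M reads in genes, scaled between libraries) in fed and 103762 to 163555 CPM in starved libraries, with 3 higher and 2 lower of 6. Kupffer cell (resident macrophage) markers, 6 of 7 lower in starved liver, summed to 357 to 592 CPM in fed and 144 to 305 CPM in starved libraries. Cholangiocyte markers summed to 46.5 to 57.4 and 15.03 to 40.8 CPM, with 1 of 5 tested markers lower. Endothelial markers summed to 243 to 280 and 198 to 257 CPM (1 higher, 3 lower of 7), and stellate cell markers to 422 to 485 and 425 to 622 CPM (1 higher, 2 lower of 7). Neutrophil markers, all 3 tested ones higher in starved liver, summed to 1.72 to 3.65 and 2.72 to 22.2 CPM, with the highest sums in starved libraries 4 and 2. Pancreas and muscle markers stayed at or below 4.17 and 0.295 CPM in sum. Of all tested genes, 18.6% were higher and 20.0% lower in starved liver. In whole liver, fewer cells of a type and less RNA per cell cannot be told apart, and the part of these markers in the results below was not tested.

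All 9 genes passed the filter on low counts and were compared with the quasi-likelihood test of edgeR, a model of read counts. P-values were adjusted over 12796 genes by the Benjamini-Hochberg method, and a gene is called at an adjusted p under 0.05. Levels are CPM after TMM scaling, which corrects for differences in library composition. Angptl4 and Fst rose, Angptl6, Inhbe, Enho and Lect2 fell, and Fgf21, Gdf15 and Fetub were not called. These 6 of 9 calls (66.7%) stand beside 38.6% of all tested genes, with 18.6% higher and 20.0% lower. Fed and starved values did not overlap for 5 of the 9 genes, Angptl4, Angptl6, Inhbe, Enho and Lect2, as was so for 29.9% of tested genes. The median log2 fold change of the 9 genes was −0.87, beside 0.0035 over all tested genes, and 6 of 9 differed by at least 1 on the log2 scale in either direction, Gdf15, Angptl6 and Fetub being below that, beside 13.8% of all tested genes. Without starved libraries 2 and 4, 7 of 9 were called, beside 40.9% of genes, Fgf21 being added as higher. Library totals alone as scaling moved the log2 fold changes of all genes by a median of −0.16, so that 29.9% of calls over all genes were higher in place of 48.2%. The direction of each of the 9 genes was the same under it.

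**Figure D1:**
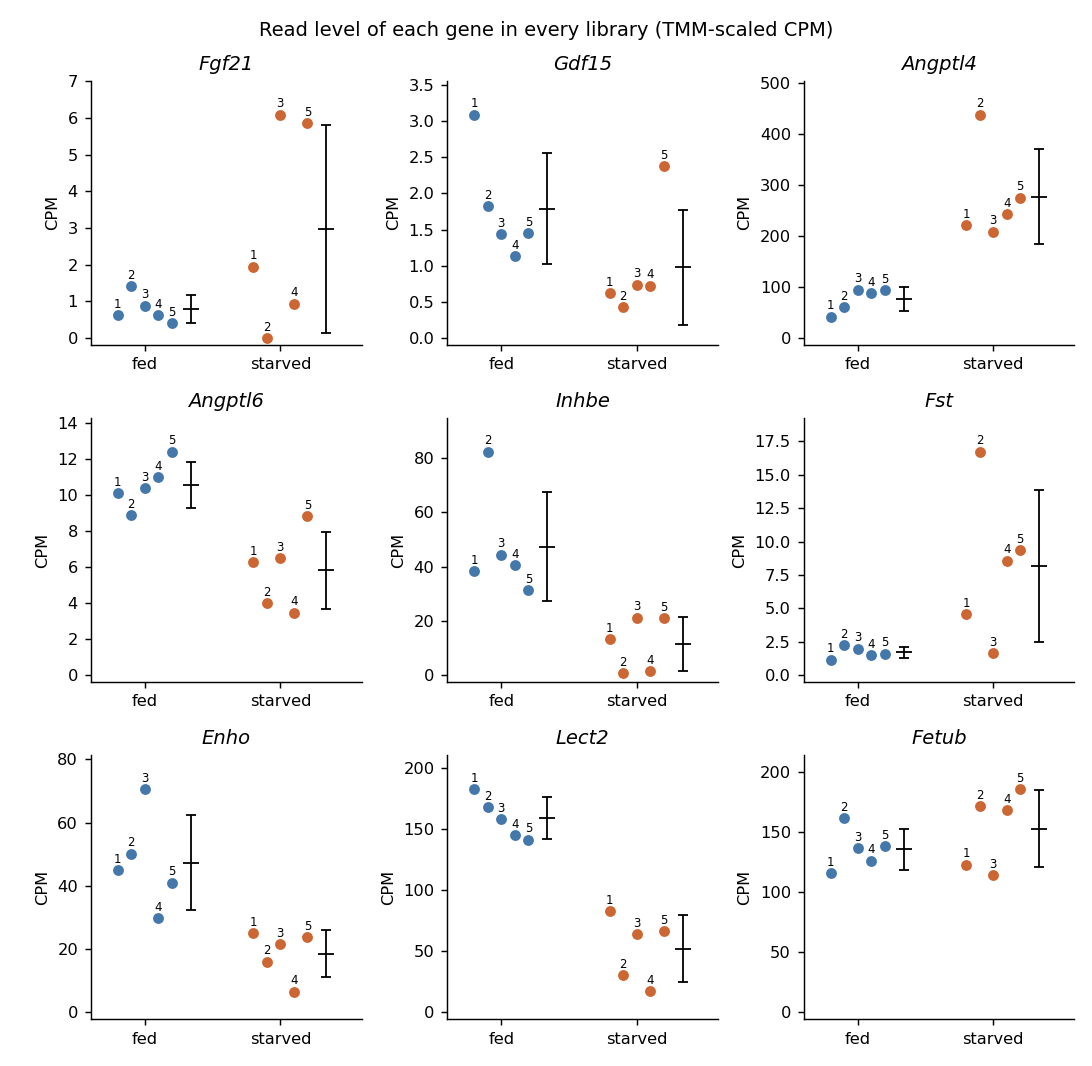
Each panel plots 1 gene, with TMM-scaled CPM on a linear axis from 0 and the 5 fed (blue) and 5 starved (orange) libraries as points labelled by number; the bar beside each group is the mean ± SD. Starved values of Angptl4, from 209 to 439 CPM, all lie above the fed ones, those of Lect2 all lie below, and Fetub overlaps.

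Fgf21, the endocrine FGF of the fasting liver (chromosome 7, 45613886 to 45615490, mm10, minus strand), was measured at very few reads. Its level was 0.632, 1.42, 0.883, 0.620 and 0.403 CPM in fed libraries 1 to 5, from 10 to 43 reads. In starved libraries 1 to 5 it was 1.95, 0, 6.10, 0.939 and 5.85 CPM, from 50, 0, 124, 26 and 101 reads. Starved libraries 1, 3 and 5 were above every fed library, starved library 4 was within the fed range, and library 2 had no read, which allows a level of up to 0.160 CPM (3 reads; this limit covers counting error only). Mean levels were 0.792 ± 0.392 CPM (fed) and 2.97 ± 2.83 CPM (starved, SD, n = 5 each). The log2 fold change of 1.87 ± 0.77 (SE) did not pass the test (edgeR adjusted p = 0.0720). With limma-voom, another test, it was 0.60 (adjusted p = 0.713). Without starved library 2 it was 2.18 and was called (adjusted p = 0.00553), and without libraries 2 and 4 it was 2.52 ± 0.39, 5.73-fold (adjusted p = 0.000381). The call for Fgf21 thus turned on library 2.

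The genes through which FGF21 is received were also measured in liver, which is not its main target. Of 9 genes for receptors and endocrine FGFs, 6 passed the filter, 0 rose and 2 fell, beside 18.6% and 20.0% of all tested genes. Their list had a median log2 fold change of −0.17. Fgfr3 (−1.23 ± 0.20, from 36.8 ± 7.92 to 15.7 ± 4.19 CPM) and Fgfr2 (−0.32 ± 0.10) fell, and both remained called without starved libraries 2 and 4. Klb, which encodes the co-receptor beta-klotho and is named here after its values were seen, had 60.9 ± 9.76 CPM (fed) and 65.3 ± 12.7 CPM (starved; edgeR adjusted p = 0.622).

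Gdf15, the stress hormone (chromosome 8, 70629393 to 70632456, minus strand), was at 3.09, 1.82, 1.43, 1.14 and 1.45 CPM in fed libraries 1 to 5, from 33 to 88 reads. In starved libraries it was 0.623, 0.428, 0.738, 0.723 and 2.38 CPM, from 8 to 41 reads. Starved libraries 1 to 4 were all below the lowest fed library, and starved library 5 was within the fed range. Means were 1.79 ± 0.769 and 0.977 ± 0.792 CPM (SD, n = 5 each). The log2 fold change of −0.91 ± 0.43 was not called (edgeR adjusted p = 0.115). Without starved library 5 it was −1.49 and was called (edgeR adjusted p = 0.00551). With starved libraries 2 and 4 left out it was −0.58 ± 0.44 (adjusted p = 0.320). Its receptor genes Gfral and Ret did not pass the filter. The other 8 genes in the list of TGF-beta ligands and their regulators were all tested. Of these, Bmp6 (0.53 ± 0.14) and Bmp2 (0.41 ± 0.14), ligands made by endothelial cells of liver, rose and 0 fell. Over all tested genes 18.6% rose and 20.0% fell. The list's median was 0.29, and 0.16 without starved libraries 2 and 4. With these left out 1 gene of the list rose and 1 fell, and Bmp2 was not called (0.33, edgeR adjusted p = 0.0601).

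Angptl4, the lipase inhibitor of fasting and a target of PPARA (chromosome 17, 33773750 to 33781830, minus strand), rose in every starved liver. Its level was 41.8, 60.4, 95.0, 87.6 and 94.6 CPM in fed libraries 1 to 5 and 221, 439, 209, 243 and 276 CPM in starved libraries 1 to 5. The lowest starved library was above the highest fed one. The mean rose from 75.9 ± 23.7 to 277 ± 93.8 CPM (SD, n = 5 each), a log2 fold change of 1.87 ± 0.27 or 3.66-fold (edgeR adjusted p = 0.000395). Without starved libraries 2 and 4 it was 1.65 ± 0.22. Angptl4 is also made in fat. The 5 adipocyte markers summed to 2.34 to 23.2 CPM in fed and 7.13 to 46.6 CPM in starved libraries, and of the 2 that were tested 1 rose. That gene was Cidec, which encodes a lipid droplet protein that fatty liver also makes (3.47 ± 0.46, from 2.43 ± 0.818 to 27.1 ± 16.0 CPM). Adipoq, the adiponectin gene, was at 0.0344 to 3.02 CPM in fed and 0 to 1.13 CPM in starved libraries, Cfd at 0.0689 to 15.7 and 0 to 3.85 CPM, and Plin1 and Lep were under 1 CPM in every library. The part of fat RNA in the level of Angptl4 was not tested.

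Angptl6, a family member that opposes weight gain in mouse models (chromosome 9, 20873808 to 20879727, minus strand), moved the other way. It was at 10.1, 8.88, 10.4, 10.98 and 12.4 CPM in fed and at 6.26, 4.01, 6.49, 3.47 and 8.81 CPM in starved libraries 1 to 5. The groups did not overlap, but starved library 5 (8.81 CPM) was just under fed library 2 (8.88 CPM), and starved libraries 4 and 2 were lowest. The log2 fold change was −0.87 ± 0.23 (edgeR adjusted p = 0.0113). It was −0.54 ± 0.14 without starved libraries 2 and 4 (adjusted p = 0.00969). Angptl6 shares 265 of its 1582 exon bases with A230050P20Rik on the opposite strand, which fell too (−1.05 ± 0.26). Without a stated strand setting, reads from these bases cannot be told apart.

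Other genes of the ANGPTL family and of its lipase targets changed in both directions. Of 17 listed genes 16 were tested, 6 rose and 6 fell, beside 18.6% and 20.0% of all tested genes. The list's median log2 fold change of 0.04 turned to −0.11 with library totals alone and was 0.25 without starved libraries 2 and 4. Gm6484, now named Angptl8, which takes part in the inhibition of lipoprotein lipase in the fed state, fell from 57.9 ± 22.1 to 8.22 ± 3.56 CPM (−2.82 ± 0.33). It was at 34.7 to 93.0 CPM in fed and 4.59 to 13.4 CPM in starved libraries, with no overlap. Angptl7 (−2.14 ± 0.35, at 1.26 ± 0.349 CPM in fed liver) and Lipg, the endothelial lipase (−2.07 ± 0.54, and −1.48 without starved libraries 2 and 4), also fell. Cd36, a fatty acid transporter (0.96 ± 0.16), Apoa5, an activator of triglyceride clearance (0.95 ± 0.19), and Apoc2, the cofactor of lipoprotein lipase (0.93 ± 0.23), rose. These 6 genes were all called without starved libraries 2 and 4. Lpl itself was at 11.2 ± 1.14 and 11.1 ± 5.82 CPM (adjusted p = 0.993), a value named after it was seen.

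**Figure D2:**
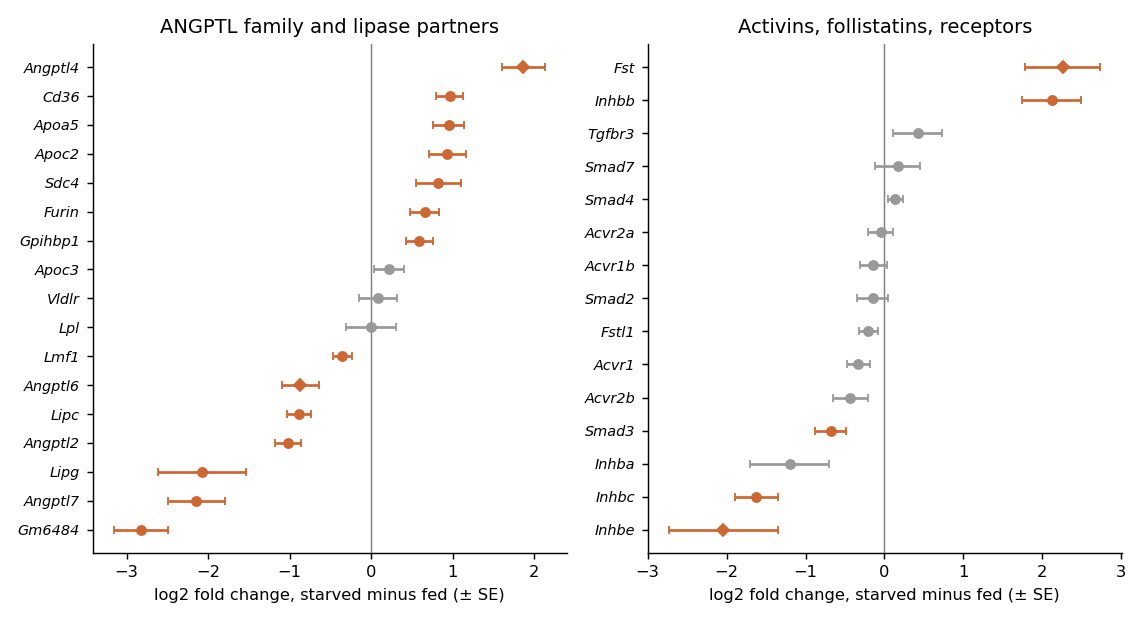
Points are log2 fold changes, starved minus fed, with bars of ± SE, for tested genes of the ANGPTL and lipase list, 1 of which is not drawn (left), and of the activin list (right); diamonds mark the hepatokine members, orange marks adjusted p under 0.05 and grey the rest. Angptl4 (1.87) and Gm6484 (−2.82) are at opposite ends on the left, Fst (2.26) and Inhbe (−2.04) on the right.

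Inhbe, the activin E subunit made almost only by liver (chromosome 10, 127348857 to 127354411, minus strand), had the lowest log2 fold change of the 9 genes and a wide spread. It was at 38.2, 82.4, 44.5, 40.7 and 31.2 CPM in fed libraries 1 to 5 and at 13.2, 0.855, 21.2, 1.59 and 21.0 CPM in starved libraries 1 to 5. Starved libraries 2 and 4, with 16 and 44 reads, were far below the other 3, which had 339 to 431 reads and were themselves below every fed library. The highest starved library was 24.8-fold above the lowest, against 2.64-fold among fed ones. The mean fell from 47.4 ± 20.2 to 11.6 ± 9.99 CPM (SD, n = 5 each), a log2 fold change of −2.04 ± 0.69 (edgeR adjusted p = 0.0343). Leaving out starved libraries 2 and 4, the fall was smaller but more even, −1.35 ± 0.28 (adjusted p = 0.00271). With limma-voom the log2 fold change was −2.91 (adjusted p = 0.00892). The edgeR call was lost without fed library 1 (adjusted p = 0.0513), 2 (0.0833), 3 (0.0568) or 4 (0.0548) and without starved library 1 (0.0524) or 4 (0.0552).

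Fst, which encodes the activin-binding protein follistatin (chromosome 13, 114452290 to 114458951, minus strand), rose, also from few reads. It was at 1.16, 2.22, 1.99, 1.51 and 1.61 CPM in fed libraries, from 33 to 67 reads, and at 4.55, 16.7, 1.67, 8.56 and 9.33 CPM in starved libraries 1 to 5, from 34 to 313 reads. Starved library 3 was within the fed range and the other 4 were above it, library 2 highest. The mean rose from 1.70 ± 0.415 to 8.17 ± 5.70 CPM, a log2 fold change of 2.26 ± 0.48 or 4.78-fold (edgeR adjusted p = 0.00359). Leaving out starved libraries 2 and 4 gave 1.60 ± 0.39 (adjusted p = 0.00682). GENCODE lists an antisense transcript, Gm47040, over 115 of the 4589 exon bases of Fst.

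Because follistatin binds activins, the reads of Inhbe and Fst were set against each other within each library, where the ratio does not depend on scaling. Reads of Inhbe outnumbered those of Fst in all fed livers and in 3 of 5 starved livers. The log2 ratio was 5.02, 5.20, 4.47, 4.73 and 4.26 in fed libraries and 1.53, −4.25, 3.64, −2.42 and 1.17 in starved libraries 1 to 5. The groups did not overlap, and the ratio turned negative in starved libraries 2 and 4. Its mean was 4.74 ± 0.39 in fed and −0.06 ± 3.20 in starved liver, a difference of −4.80. An exact two-sided permutation test gave p = 0.00794, the smallest that 5 against 5 allows, and 0.0119 adjusted over the 3 ratios tested. Inhbe and Fst were also called singly, in opposite directions, so this p restates those calls and is not separate support. Among the other 8 libraries the difference was −2.62 (exact permutation, adjusted p = 0.0268). The ratio counts reads and not molecules, since the genes differ in length. Binding of follistatin to the protein of Inhbe was not tested, so the ratio does not measure the blocking of activins.

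Of 16 other listed subunits, receptors and signal carriers of the activin pathway 13 were tested, 1 rose and 2 fell, beside 18.6% and 20.0% of all tested genes, with a median log2 fold change of −0.15. Inhbb, the activin B subunit, rose from 1.07 ± 0.0469 to 4.69 ± 3.13 CPM (2.12 ± 0.37), and its 5 starved values, 2.09 to 9.99 CPM, were above all fed values. Inhbc, the activin C subunit and neighbour of Inhbe, fell from 24.7 ± 8.04 to 8.02 ± 2.61 CPM (−1.62 ± 0.27). Smad3, which carries activin signals to the nucleus, fell (−0.68 ± 0.20). Without starved libraries 2 and 4 these 3 genes remained called (1.49, −1.31 and −0.49), and 1 gene of the list rose and 4 fell.

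**Figure D3:**
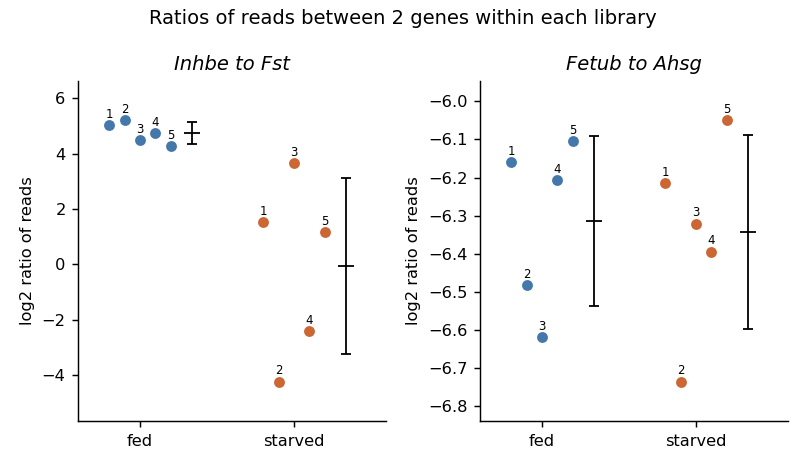
Points are log2 ratios of reads of 2 genes within a library (pseudocount 0.5), by group and labelled with the library number, with the mean ± SD beside them; the vertical axes differ in range and do not start at 0. Inhbe to Fst separates fed from starved livers, and Fetub to Ahsg, between −6.74 and −6.05, does not.

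Enho, the gene of the peptide adropin (chromosome 4, 41638144 to 41640324, minus strand), fell in all starved livers. It was at 45.1, 50.2, 70.7, 29.8 and 41.0 CPM in fed and at 24.9, 16.0, 21.4, 6.54 and 23.8 CPM in starved libraries 1 to 5. The highest starved library was below the lowest fed one, and starved library 4 was lowest by far. The mean fell from 47.4 ± 15.04 to 18.6 ± 7.54 CPM, a log2 fold change of −1.35 ± 0.32 (edgeR adjusted p = 0.00700). With starved libraries 2 and 4 left out it was −0.996 ± 0.22 (adjusted p = 0.00319). Enho shares 15 exon bases with Dnaic1 on the opposite strand, a gene at 0.0361 to 2.43 CPM.

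Lect2 encodes a chemotactic factor that hepatocytes secrete (chromosome 13, 56542464 to 56548502, minus strand). Per GENCODE exon length it was the most abundant of the 9 genes in fed liver. It was at 183, 168, 158, 145 and 141 CPM in fed and at 82.8, 30.5, 63.7, 17.0 and 66.1 CPM in starved libraries 1 to 5. Fed values lay within 1.29-fold of each other, starved values within 4.86-fold, and starved libraries 4 and 2 were lowest. The mean fell from 159 ± 17.1 to 52.0 ± 27.2 CPM, a log2 fold change of −1.61 ± 0.34 or 3.05-fold (edgeR adjusted p = 0.00374), and by −1.14 ± 0.12 without starved libraries 2 and 4 (adjusted p = 2.8e-05). Lect2 is a gene of pericentral hepatocytes. Of 9 listed pericentral markers 1 rose and 2 fell, and their summed level was 7786 to 10563 CPM in fed and 8509 to 11376 CPM in starved libraries. Periportal markers, of which 4 of 7 rose and 2 fell, summed to 2741 to 4945 and 5456 to 12868 CPM. Over all tested genes 18.6% rose and 20.0% fell. The part of liver zones in the fall of Lect2 was not tested. Met, the hepatocyte growth factor receptor, which LECT2 can bind, fell (−0.64 ± 0.20, edgeR adjusted p = 0.0274). Leaving out starved libraries 2 and 4 gave −0.36 (adjusted p = 0.0468). Met was the only one of 4 tested partner genes of LECT2, adropin and fetuins to be called, beside 38.6% of all tested genes.

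Fetub, the gene of fetuin B (chromosome 16, 22918334 to 22939778, plus strand), was not called. It was at 116, 161, 137, 126 and 138 CPM in fed and at 123, 172, 114, 168 and 186 CPM in starved libraries 1 to 5. The groups overlapped over most of their range. The means were 136 ± 17.0 and 153 ± 31.9 CPM, a log2 fold change of 0.17 ± 0.15 (edgeR adjusted p = 0.393). It was 0.01 with library totals alone and 0.07 ± 0.15 without starved libraries 2 and 4. The log2 ratio of Fetub to Ahsg, its neighbour and paralog for fetuin A, was −6.31 ± 0.22 in fed and −6.34 ± 0.25 in starved liver, a difference of −0.03 (exact two-sided permutation p = 0.841). A p of this size does not show that the levels were equal.

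**Figure D4:**
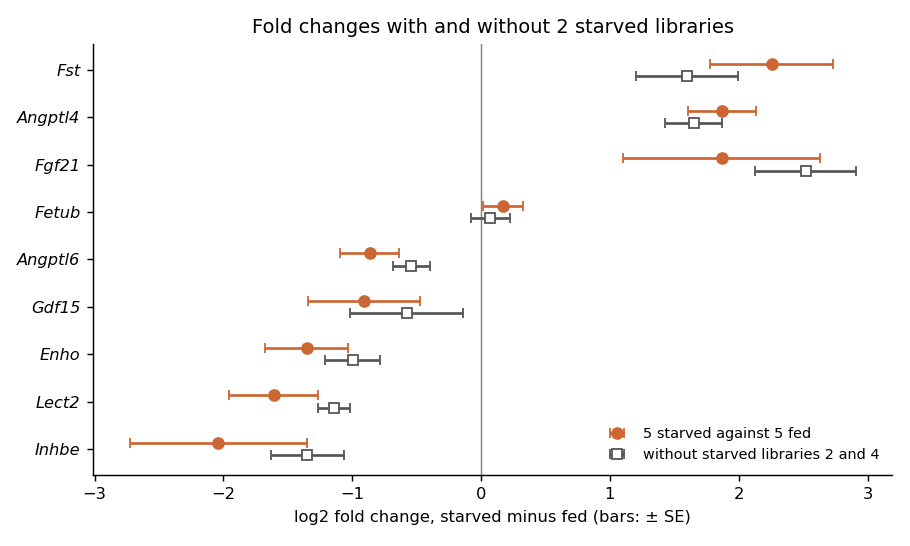
Log2 fold changes of the 9 genes, starved minus fed, with bars of ± SE: filled circles use 5 starved and 5 fed libraries, open squares leave out starved libraries 2 and 4. Every gene keeps its sign; Fgf21 moves from 1.87 to 2.52, and Inhbe from −2.04 to −1.35.

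The coefficient of variation was larger in starved than in fed libraries for all 9 genes, as for most genes (82.2% of those tested). It went from 10.7% to 52.4% for Lect2, from 24.4% to 69.8% for Fst and from 49.5% to 95.5% for Fgf21, but only from 31.3% to 33.8% for Angptl4. For 5 of the 9 genes, Fgf21, Angptl6, Inhbe, Enho and Lect2, starved libraries 2 and 4 were the lowest pair of starved libraries, as for 25.5% of tested genes. Igfbp1, a secreted binding protein that insulin represses, was highest in the same pair, as were 24.7% of tested genes. It was at 9210 and 3487 CPM there, beside 178 to 1074 CPM in the other starved libraries. Atf4, whose protein acts on Fgf21 and which is named here after its values were seen, was at 95.9 ± 9.21 CPM in fed liver and at 94.8, 304, 98.7, 124 and 90.1 CPM in starved libraries 1 to 5. Its 2 highest starved values were in the same pair of libraries, and it was not called (0.57 ± 0.31, adjusted p = 0.159, edgeR). The part of Atf4 in the levels of the 9 genes was not tested.

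**Figure D5:**
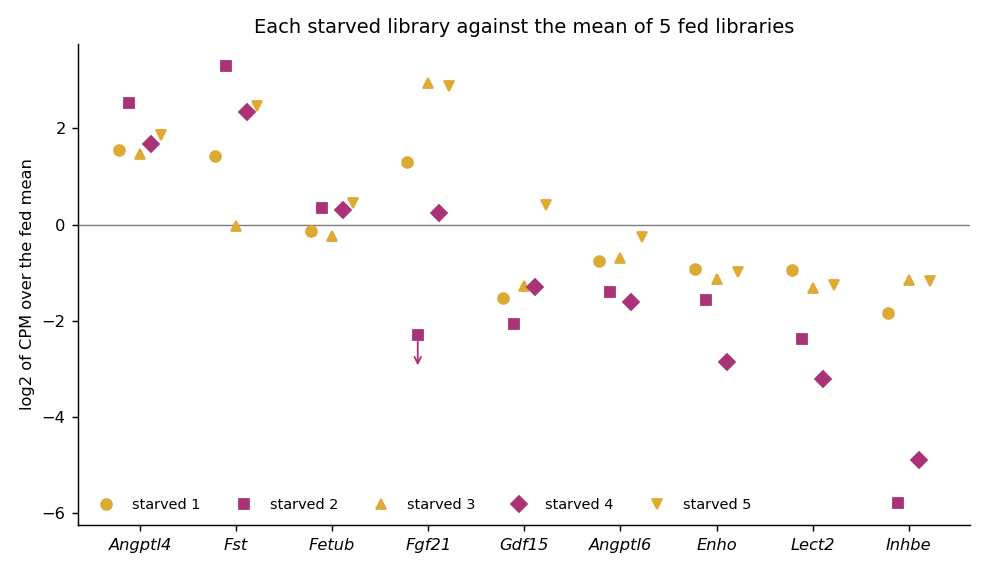
For each gene, the 5 starved libraries are plotted as log2 of their CPM over the mean of the 5 fed libraries, with starved libraries 2 and 4 in purple; the arrow marks Fgf21 in starved library 2, which had no read and is drawn at its limit of 3 reads. Libraries 2 and 4 are lowest for Inhbe, Lect2, Enho, Angptl6 and Fgf21, and library 2 is highest for Angptl4 and Fst.

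Levels of different genes were compared per kilobase of exon. In fed liver the order was Lect2 (173 ± 18.6 CPM per kb), Fetub (69.1 ± 8.68), Enho (37.3 ± 11.9), Angptl4 (21.4 ± 6.71), Inhbe (8.91 ± 3.79), Angptl6 (6.67 ± 0.813), Gdf15 (0.965 ± 0.415), Fgf21 (0.833 ± 0.413) and Fst (0.370 ± 0.0904). The ranges of Lect2 and Fetub, of Fetub and Enho, and of Angptl6 and Gdf15 did not overlap, and those of the other neighbours did. In starved liver Angptl4 (78.4 ± 26.5 CPM per kb), Fetub (77.8 ± 16.3) and Lect2 (56.6 ± 29.6) led with overlapping ranges, followed by Enho (14.6 ± 5.94), Angptl6 (3.67 ± 1.36), Fgf21 (3.12 ± 2.98), Inhbe (2.18 ± 1.88), Fst (1.78 ± 1.24) and Gdf15 (0.528 ± 0.427), each overlapping the next. Over all libraries Lect2 ranked 444 and Gdf15 9793 of 12725 tested genes with a length. Lengths were those of all GENCODE exons of a gene. For Inhbe these come to 5319 bases, while RefSeq's whole gene spans 2447 bases, so its level per kilobase may be understated by 2.17-fold or more. Gene models of Lect2 and Angptl4 differ too. RefSeq's Lect2 runs from 56529734 to 56548559 and GENCODE's from 56542464 to 56548502. GENCODE's Angptl4 runs from 33773750 to 33781830 and RefSeq's from 33774900 to 33781575. The places of Lect2 and Angptl4 in the order thus also depend on the annotation.

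Of 24 listed transcription factors known to act on Fgf21, Angptl4 or Gdf15, all of which were tested, 4 rose and 3 fell, beside 18.6% and 20.0% of all tested genes. Their median of 0.06 turned to −0.10 with library totals alone and to −0.05 without starved libraries 2 and 4, where 3 rose and 5 fell. Ppargc1a, a coactivator of fasting genes (2.18 ± 0.16), and Atf5 (0.83 ± 0.19) rose, and Atf3 rose by 3.11 ± 1.01 but was not called without starved libraries 2 and 4 (0.52, adjusted p = 0.194). Ppara, the fatty acid receptor, fell (−1.20 ± 0.21, from 389 ± 52.1 to 169 ± 55.0 CPM), as did Mlxipl, the carbohydrate-responsive factor (from 58.6 ± 10.2 to 29.3 ± 5.29 CPM), and Ctnnb1, beta-catenin (−0.57 ± 0.19). Apart from Atf3, these genes remained called in the same direction without starved libraries 2 and 4.

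Among 24 other genes of liver-secreted factors, 21 were tested, 7 rose and 9 fell, beside 18.6% and 20.0% of all tested genes. The list's median of 0.13 turned to −0.03 with library totals alone and was −0.08 without starved libraries 2 and 4. Igfbp1 (7.10 ± 1.16, and 4.55 without starved libraries 2 and 4), Lcn2, an iron-siderophore carrier (1.85 ± 0.19), and Igfbp2 (1.30 ± 0.27) rose. Saa4, a constitutive serum amyloid (−1.98 ± 0.33), Ghr, the growth hormone receptor that also sheds a plasma binding protein (−1.80 ± 0.29), and Serpina12, vaspin (−1.77 ± 0.46), fell. All 6 were called in the same direction without starved libraries 2 and 4.

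Genes with the most similar course over the 10 libraries were found by the root mean square difference between standardised log2 CPM (mean 0, SD 1), among genes with a mean of at least 5 CPM. The nearest 2 were Wbp1 (0.131 SD) and Sord (0.139) for Lect2, Tjp3 (0.132) and Glyctk (0.137) for Inhbe, Fkbp11 (0.172) and Ppp1r3b (0.193) for Enho, and Car5a (0.183) and Ergic3 (0.196) for Angptl6. For Angptl4 they were Cebpd (0.230) and Gadd45b (0.232), and for Fst Fbln5 (0.225) and Slc25a22 (0.286). The courses of Fgf21, with Fpgs (0.245) and Cpt2 (0.321), of Fetub, with Vps52 (0.279) and Dcp1a (0.378), and of Gdf15, with Dym (0.422) and Dnpep (0.431), were matched less closely. These are likenesses over the same 10 libraries and carry no test.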

How the data were processed

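Each library's deposited file lists raw read counts by gene symbol, as whole numbers. Per the submitters' processing notes, the tools included HTSeq, TopHat2 2.0.0 on Bowtie2 2.0.0, CASAVA 1.8.2 and edgeR 3.6.4, with build mm10. Which annotation and strand setting the counting had is not stated in the labels or headers. The 5 tally rows, 58.2% to 68.8% of all tallied reads, name no gene and were left out. Counts were filtered (filterByExpr, 12796 of 23420 genes kept), scaled by TMM and tested in R 4.3.3 with edgeR 4.0.16's quasi-likelihood test; alternatives used DESeq2 1.42.0 and limma 3.58.1. Standard errors were derived from the F statistic. The fit was tested on simulated data. Log2 ratios of reads used a pseudocount of 0.5 and exact permutation tests, adjusted over 3 ratios, of which 1 is not reported here. Positions and exon lengths are GENCODE's (GRCm38, that is mm10), and upstream sequences RefSeq's.

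The 9 genes, the lists and the alternatives were chosen with earlier results of these data known. Genes named are the 9, the genes of the ratios, per list, the 3 risen and 3 fallen genes that moved most and reached 1 CPM in either group (or the 2 most abundant where none was called), and the 2 nearest genes by course. Named outside this rule, after their values were seen, are Klb, Lpl, Atf4, the markers Cidec, Adipoq, Cfd, Plin1 and Lep, and genes that overlap one of the 9 (A230050P20Rik, Dnaic1, Gm47040). P-values measure the spread between mice as labelled.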

Additional observations from a re-analysis of the deposited data

Results flagged for a closer look

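In 22 groups of 5 values (9 genes and 2 ratios, fed and starved), the gap of the highest or lowest library to its neighbour was compared with the group's range by Dixon's test, which by chance marks about 1 in 20 groups. It marked 2 groups. Gdf15 was at 2.38 CPM in starved library 5, beside 0.428 to 0.738 CPM in the other 4 starved libraries. Inhbe was at 82.4 CPM in fed library 2, beside 31.2 to 44.5 CPM in the other fed libraries. Causes were not tested. The low values of Inhbe and Fgf21 in starved libraries 2 and 4 were not marked. Each gap was taken to the nearest value, so 2 low libraries side by side can hide each other. The lack of a mark therefore does not show that these values were ordinary.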

How the results depend on the processing

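Alternative scalings (DESeq2 size factors, upper-quartile factors, library totals), tests (DESeq2's Wald test, edgeR's likelihood ratio test, limma-voom), low-count filters, a threshold of 0.01, a replicate block and left-out libraries were tried. Angptl4, Fst, Enho and Lect2 kept their direction and call in all 21 alternatives, and no gene of the 9 reversed. The number of the 9 called higher was 2 to 3 and called lower 3 to 5 when 1 library was left out, and 2 were called lower at a threshold of 0.01, where Angptl6 and Inhbe were not called. Over all genes, 2798 were called at 0.01 (1272 higher, 1526 lower) in place of 4934, and 1490 were higher with library totals alone in place of 2379. Leaving out 1 library gave 3981 to 5613 calls, 1868 to 2766 higher and 2043 to 2847 lower. The replicate numbers showed little sign of pairing over all genes. The correlation of same-numbered deviations was −0.05 to 0.20, over 0.1 in 1 of 5 pairs, and 3 of 10 libraries correlated best with their own number. This does not show that the mice were unpaired. Adipoq, for 1, was highest in library 1 of both groups (3.02 CPM fed, 1.13 CPM starved). With a replicate block 4410 genes were called, 2 of the 9 higher and 3 lower, Inhbe being lost (−2.50, adjusted p = 0.0550, edgeR). As a paired difference the ratio of Inhbe to Fst (−4.80) had an adjusted exact p = 0.0938; 5 pairs cannot go below an unadjusted 0.0625. The ratio of Fetub to Ahsg changed sign without fed library 1 (0.00997) or 5 (0.0239), without starved library 2 (0.0696) and without starved libraries 2 and 4 (0.119), its range with 1 library left out being −0.104 to 0.0696. That of Inhbe to Fst was −5.73 to −3.76. Fgf21 did not pass a filter of 1 CPM in 5 libraries. Fgf21, Gdf15 and Fst rest on few reads, and their values are the least precise.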
